A study of Homo sapiens with 28 samples.

Results

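Myeloma cells lodge in the bone marrow with a small set of surface proteins, and 9 of their genes were followed here in chromatin accessibility data: CXCR4, ITGA4, ITGB1, ITGAL, CD44, NCAM1, ICAM1, SELPLG and CD28. Every region whose nearest transcription start in the deposited annotation belongs to one of these genes was taken, whether promoter or distal, which gave 81 of the 154985 regions. Of the 81, 27 were promoter regions, from 2.5 kb upstream to 0.5 kb downstream of a start, and 54 were distal. NCAM1 had 22 regions, ITGB1 and CD44 had 12 each, CXCR4 and CD28 had 10 each, ITGA4 and ICAM1 had 5 each, SELPLG had 3 and ITGAL had 2. Their Ensembl identifiers are ENSG00000121966 for CXCR4, ENSG00000115232 for ITGA4, ENSG00000150093 for ITGB1, ENSG00000005844 for ITGAL, ENSG00000026508 for CD44, ENSG00000149294 for NCAM1, ENSG00000090339 for ICAM1, ENSG00000110876 for SELPLG and ENSG00000178562 for CD28. Distances are to the nearest annotated start of the gene, which can be an internal one.

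The libraries were made by ATAC-seq, in which a transposase cuts and tags open chromatin, from established human myeloma cell lines. There were 22 untreated lines with 1 library each. Karpas620, KMS27, L363, MM1S, OPM2 and RPMI8226 had a second library from cells given 10 µM lenalidomide and collected on day 3. Lenalidomide is a drug that directs the ubiquitin ligase component cereblon to the lymphoid transcription factors IKZF1 and IKZF3, which are then degraded. The labels give the 6 partners as controls with no treatment, and name no vehicle. Only autosomal regions are in the tables, and each library is a bulk of cells, so an opening in fewer cells and a weaker opening in all cells cannot be told apart.

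The 9 proteins work at successive steps of homing. CXCR4 is the receptor for the chemokine CXCL12, which marrow stroma makes. SELPLG encodes PSGL-1, the ligand with which rolling cells catch P-selectin. ITGA4 and ITGB1 encode the 2 chains of VLA-4, the integrin that holds VCAM-1 and fibronectin, and ITGAL encodes the alpha chain of LFA-1, whose ligand is ICAM-1. CD44 binds hyaluronan, NCAM1 encodes the adhesion molecule CD56, and CD28 is a costimulatory receptor best known from T cells that some plasma cells also carry. CD56, CD44 and CD28 are all used in myeloma as surface markers that differ between tumours.

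After lenalidomide 4 member regions passed the test described further on, and sequences of 300 bases in or beside the centre of each are shown because the results on the drug turn on them. The ITGB1 stretch, chr10:33247254-33247553 on GRCh37, is on the minus strand on which the gene is read, and is not the region's centre. It is taken upstream of the outermost base within that accessible region that GENCODE annotates as untranslated region of ITGB1. An exon of the divergent transcript ITGB1-DT also lies there, and accessibility has no strand. The other stretches are the centres of intronic regions in CD44 (chr11:35187315-35187614), CD28 (chr2:204596944-204597243) and NCAM1 (chr11:113132661-113132960), where GENCODE has no exon. Capitals mark matches on either strand to 7 motifs: the IKZF1 core TGGGAA, an ETS-IRF composite GGAANNGAA, an IRF repeat GAAANNGAA, AP-1 TGANTCA, RUNX TGTGGT, the octamer ATGCAAAT and the GC box GGGCGG. The composite and the repeat can overlap each other.
ITGB1 start, minus strand: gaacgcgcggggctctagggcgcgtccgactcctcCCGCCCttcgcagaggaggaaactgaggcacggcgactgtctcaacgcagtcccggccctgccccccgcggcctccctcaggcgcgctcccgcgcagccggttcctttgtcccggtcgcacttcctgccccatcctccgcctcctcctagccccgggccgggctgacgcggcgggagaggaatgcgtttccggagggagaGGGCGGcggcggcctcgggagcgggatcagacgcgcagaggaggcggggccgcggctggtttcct
CD44 intron, plus strand: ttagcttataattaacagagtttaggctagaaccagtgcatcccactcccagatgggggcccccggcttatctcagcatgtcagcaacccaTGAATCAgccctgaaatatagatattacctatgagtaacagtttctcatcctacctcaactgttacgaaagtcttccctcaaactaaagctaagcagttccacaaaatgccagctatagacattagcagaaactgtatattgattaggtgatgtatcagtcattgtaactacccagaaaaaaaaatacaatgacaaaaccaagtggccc
CD28 intron, plus strand: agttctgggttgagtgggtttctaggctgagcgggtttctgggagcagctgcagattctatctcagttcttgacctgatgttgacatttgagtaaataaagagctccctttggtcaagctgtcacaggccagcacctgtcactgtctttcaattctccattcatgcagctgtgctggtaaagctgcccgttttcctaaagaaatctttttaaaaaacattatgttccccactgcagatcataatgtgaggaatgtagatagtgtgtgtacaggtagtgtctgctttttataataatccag
NCAM1 intron, plus strand: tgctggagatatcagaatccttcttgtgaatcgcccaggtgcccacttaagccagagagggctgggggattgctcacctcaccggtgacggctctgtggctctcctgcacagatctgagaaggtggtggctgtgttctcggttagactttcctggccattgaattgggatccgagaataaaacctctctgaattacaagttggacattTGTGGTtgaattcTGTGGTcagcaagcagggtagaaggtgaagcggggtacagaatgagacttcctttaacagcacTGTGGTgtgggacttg

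The ITGB1 stretch held 2 GC boxes, with 73.7% G and C and 39 CpG dinucleotides. Windows of 300 bases centred on promoter regions held a GC box in 40.0% of 32418 cases. The CD44 stretch held 1 AP-1 match, as did 16.6% of the windows on 122567 distal regions. The NCAM1 stretch held 3 RUNX matches, and 33.0% of distal windows held at least 1. None of the 7 motifs was found in the CD28 stretch. The IKZF1 core was in none of the 4 stretches, whereas 20.8% of promoter and 21.4% of distal windows held it. A match is only a run of letters, and a missing match says nothing of a factor.

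Depth and similarity of the libraries set how far single values can be read. Untreated libraries had 1599857 to 5564534 counts in regions, with a median of 2239819, and lenalidomide libraries had 2168680 to 4248017. The untreated libraries of KMS34 and PE1 correlated at r = 0.90 over 106658 regions, whereas all pairs of untreated lines had a median of 0.61 and the 2 libraries of one line in the lenalidomide pairs lay between 0.88 and 0.93. KMS34 and PE1 are therefore as alike as 2 libraries of one line, and the means, SDs and counts of called regions over the 22 lines were also computed without PE1; correlations and rankings were not. H1112 was the deepest library and had 37 of the 81 regions called as peaks, where the median line had 16.5 and the lowest had 10. It also had the most called over the whole series, 58983 of 154985 regions, where the lowest untreated line had 18943. Most of the 9 plasma cell promoters were open in most lines. PRDM1, TNFRSF17 and POU2AF1 had a peak in all 22 lines, SDC1 and CD38 in 21, MZB1 in 20, and IRF4 and XBP1 in 18, while SLAMF7 had one in 2. Of the promoters on the lists of other cell types, CD3E and CD3G had a peak in 1 line each and GATA3 in 5, CD22 in 1, MS4A1 in 2, PAX5 in 11 and BCL6 in 20, CD14 in 1, CD33 in 2 and CEBPE in 8, and TEK in 2, PDGFRB in 5 and COL1A1 in 21.

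CXCR4, ITGA4 and CD28 each had a promoter that was called as a peak in every untreated line. They made 3 of 81 member regions, beside 3.98% of all regions, and 3 of 27 member promoters, beside 16.8% of all promoter regions. None of the 54 distal member regions was called in all lines, where 0.585% of all distal regions were. At the other end, 36 of the 81 regions were called in 1 line only, 44.4% beside 37.1% of all regions. H1112 alone held 10 of these 36, and without that library 29 regions were called in 1 line. Leaving out PE1 left the counts of 3 and 36 as they were. With a level of at least 2 CPM (a library's counts scaled to a common total in regions, as RPM is) in place of a peak, 12 member regions were open in every line, beside 10.5% of all regions, and at 5 CPM 8 were, beside 6.38%.

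CXCR4 had a broad promoter region, chr2:136873873-136876093, that covered its 5′ UTR, exon and intron. Its level over the 22 lines was 76.0 ± 30.5 CPM (mean ± SD), with the lowest value of 38.7 CPM in XG-6, a median of 70.6 CPM and the highest of 141 CPM in KMS27. KMS12PE followed at 123 CPM and KMS18 at 118 CPM. The promoter carried 51.9% of the counts of all 10 CXCR4 regions, and the lines thus differed in degree and not in whether the receptor gene was open.

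A second CXCR4 region, chr2:136893551-136894394, lay 17.8 kb upstream of the start and outside annotated genes. It was called in 21 lines and had a level of 25.3 ± 8.52 CPM (n = 22), with 39.2 CPM in Karpas620, a median of 23.9 CPM and 6.75 CPM in KMS27, the one line without a peak. The line with the highest promoter was thus the lowest here, and promoter and upstream region had a Pearson r of −0.15 over the 22 lines (Spearman −0.06). Without XG-6 and KMS27, the lines farthest from the median at the promoter, r was 0.13. These correlations share the library and its depth at both regions and are descriptions.

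The region 8.1 kb downstream, chr2:136864981-136865762, went more closely with the promoter. Its level was 9.34 ± 6.87 CPM over the 22 lines and it was called in 11, with the highest value of 24.4 CPM in KMS12PE and the lowest of 1.72 CPM in KMS20, and r with the promoter was 0.62 (0.59 without XG-6 and KMS27). A further CXCR4 region, 13.8 kb upstream (chr2:136889555-136890286), was high in few lines. Karpas620 had 72.2 CPM there, from 208 counts, and the next lines were U266 with 20.8 CPM and PCM6 with 16.3 CPM, over a median of 3.48 CPM. Karpas620 had 59.9 CPM in its lenalidomide library too, so the high value was seen in both libraries of the line. That region was outside the rule for named regions and was singled out after its values were seen.

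ITGA4, the alpha chain of VLA-4, had the most even promoter of the integrins. The region chr2:182321312-182323118 over its 5′ UTR, exon and intron had 86.8 ± 23.7 CPM (n = 22) and ran from 55.1 CPM in LP1 through a median of 86.7 CPM to 142 CPM in KMS26. It held 93.6% of the counts of the 5 ITGA4 regions, and the 2 leading distal regions, both in another gene, averaged 2.66 and 1.93 CPM. KMS12PE and KMS12BM came next after KMS26, with 130 and 128 CPM.

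ITGB1, its partner chain, was lower and more spread. Its promoter region chr10:33246278-33247796 had 27.6 ± 11.9 CPM and was called in 21 lines, with 12.1 CPM in OCIMY5, a median of 27.3 CPM and 53.7 CPM in OPM2. The distal regions that led were in introns, 8.4 kb and 3.1 kb upstream of the nearest start, and averaged 5.31 and 5.96 CPM. They were highest in KMS12PE at 21.4 CPM and KMS12BM at 23.1 CPM. Summed over the 12 regions, those lines were also the highest, with 138 CPM in KMS12BM and 129 CPM in KMS12PE against a median of 56.1 CPM. The levels of ITGA4 and ITGB1, whose products pair in VLA-4, can be set side by side only per length: ITGA4 had 48.1 ± 13.1 CPM per kb of region and ITGB1 18.2 ± 7.81.

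ITGAL had little signal. Its promoter region, chr16:30483744-30484263, had 8.93 ± 3.77 CPM over the 22 lines, and 14 of them had a peak. PCM6 led with 18.6 CPM, the median was 7.82 CPM and OPM2 was lowest with 4.17 CPM. ICAM1, which encodes the LFA-1 ligand, had 12.0 ± 6.89 CPM at chr19:10381118-10382074, with 29.9 CPM in XG-6, a median of 10.8 CPM and 1.04 CPM in OPM2. OPM2 was thus the lowest line at both, from 8 counts at ITGAL and 2 counts at ICAM1. Over the 36 pairs of leading promoters ITGAL and ICAM1 had the only r above 0.5, at 0.54 (Spearman 0.50). Without KMS20 and PCM6 r was 0.54, a check that kept OPM2. The 36 values of r ran from −0.42 to 0.54 with a median of 0.03, so the 9 promoters did not share one order of lines.

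CD44 was called as open in its introns in more lines than at its start. The promoter region chr11:35160333-35161529 was called in 11 lines and had 23.3 ± 15.7 CPM, with 3.57 CPM in L363, a median of 22.9 CPM and 73.1 CPM in KMS12BM. LP1 was next with 39.1 CPM. Calls did not follow level at this promoter, where PE1 had 36.3 CPM without a peak and H1112 a peak at 13.1 CPM. The intronic region chr11:35165519-35166119 was called in 20 lines with 22.8 ± 9.87 CPM, and the one at chr11:35186866-35188063, 26.5 kb downstream of the promoter region and 10.1 kb upstream of an internal start, in 18 lines with 26.4 ± 17.2 CPM. KMS12BM led at both, with 46.3 and 76.0 CPM.

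Summed over its 12 regions CD44 was lowest in RPMI8226 with 28.3 CPM, followed by KMS12PE with 39.4 CPM and L363 with 40.3 CPM. RPMI8226 had 5.67 CPM at the promoter, 8.03 CPM at the nearer intronic region and 0.944 CPM at the farther one, the lowest there. L363 was lowest at the first pair with 3.57 and 5.10 CPM but had 17.3 CPM at the farther region, where KMS21BM with 4.17 CPM was the next lowest after RPMI8226. Promoter and nearer intronic region had an r of 0.74 over the 22 lines, which fell to 0.54 without L363 and RPMI8226. For the farther region r was 0.59, and 0.54 without them. Distal regions carried 77.1% of the CD44 counts, beside 39.6% for CXCR4 and 6.37% for ITGA4.

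Most regions of NCAM1, for CD56, were called in few lines, and H1112, the deepest library, had 10 of the 22 called. Of the 22, 17 were called in 1 line only, beside 37.1% of all regions. None was called in all lines, beside 3.98% of all, and 1 in no untreated line, beside 8.06%. The leading NCAM1 promoter region belonged to an internal start, chr11:113130042-113130669, and had 33.1 CPM in RPMI8226 against a median of 1.03 CPM. KMS21BM was next with 5.36 CPM, and KMS34 had 0 counts. RPMI8226 was also the highest at chr11:113058617-113059708 in an intron, with 36.8 CPM. H1112 followed with 32.0 CPM and OPM2 with 30.3 CPM, over a median of 7.45 CPM. That intronic region was called in 8 of the 21 lines other than PE1. At the intronic region chr11:113132395-113133225 the order was OPM2 with 37.0 CPM, H1112 with 31.1 CPM and RPMI8226 with 18.4 CPM, over a median of 2.77 CPM.

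Summed over its regions NCAM1 ran from 6.06 CPM in KMS34 through a median of 33.1 CPM to 190 CPM in RPMI8226, with H1112 second at 142 CPM. PE1 had 0 counts like KMS34 at the internal start, and PE1 and PCM6 did so at chr11:113132395-113133225. The stronger region at the 5′ end of NCAM1 was not among the 81 regions, because the annotation assigns it to another gene, RP11-629G13.1. There, at chr11:112831815-112832437, 6 lines had a peak and the level was 6.53 ± 5.39 CPM, with 17.6 CPM in KMS28 as the highest value. A weaker neighbour, chr11:112832514-112832680, was among the 81, with a mean of 1.25 CPM over the untreated lines other than RPMI8226.

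SELPLG had promoter regions only. The leading one, chr12:109027415-109027844, had 20.4 ± 7.78 CPM over the 22 lines and a peak in 12, with 10.1 CPM in KMS18, a median of 20.96 CPM and 40.5 CPM in PCM6. A neighbouring region upstream, chr12:109028924-109029883, was assigned to RP11-689B22.2 and had 44.2 ± 14.97 CPM with a peak in 20 lines, so part of the open chromatin at this gene lay outside the rule.

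CD28 had the least variable promoter of the 9. The region chr2:204570837-204571596 was called in all lines and had 33.6 ± 7.50 CPM, from 22.1 CPM in KMS20 through a median of 34.3 CPM to 49.8 CPM in U266. Its SD on the log2(CPM + 1) scale was 0.31, where that of NCAM1 was 1.10, of CD44 0.98, of ICAM1 0.88, of ITGB1 0.61, of CXCR4 0.58 and of ITGA4 0.38. An intronic region, chr2:204582760-204583239, was called in 21 lines with 14.2 ± 6.32 CPM. Karpas620 was the line without a peak there, with 0.347 CPM, from a single count, while its CD28 promoter had 23.6 CPM. Upstream, at chr2:204554747-204555915, XG-6 and RPMI8226 had 21.8 and 21.7 CPM over a median of 4.49 CPM.

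**Figure D1:**
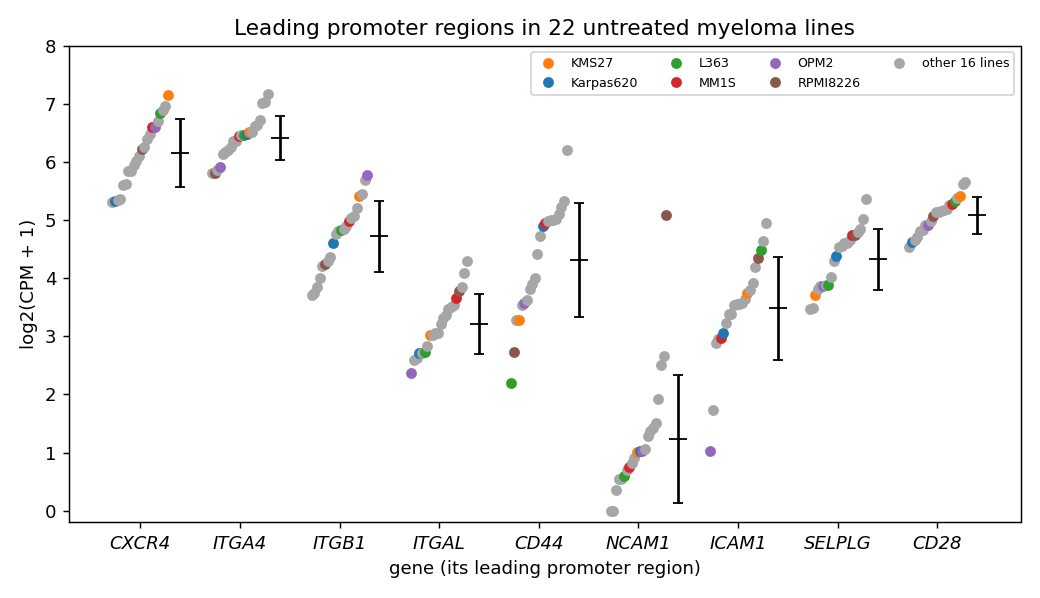
Level of the leading promoter region of each gene in log2(CPM + 1), 1 point per untreated line sorted by level, with the 6 lines that also have a lenalidomide library in colour and the mean ± SD over 22 lines in black. CXCR4 and ITGA4 sit highest, CD28 is the tightest with an SD of 0.31, and NCAM1 is low except in RPMI8226.

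Per kb of region the promoters ranked ITGA4 (48.1 CPM per kb), SELPLG (47.4), CD28 (44.3), CXCR4 (34.2), CD44 (19.5), ITGB1 (18.2), ITGAL (17.2), ICAM1 (12.5) and NCAM1 (4.43). Neighbours in this order did not differ by more than the spread of their difference over the lines, with the exception of ICAM1 and NCAM1. There the difference was 1.95 ± 1.56 in log2(CPM per kb + 1) and ICAM1 was the higher in 19 of 22 lines. The NCAM1 value is that of the internal start, which had few counts in most lines. The stronger region at the 5′ end of NCAM1, with 6.53 ± 5.39 CPM, was assigned to another gene and not ranked.

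Leaving out PE1 moved the mean of the 22 named regions by at most 12.2% and their SD by at most 25.4%, both at the weakest ITGA4 region. Dividing each line by its signal within 5 Mb, as copy number or regional signal might require, kept KMS12BM highest at CD44 and RPMI8226 highest at NCAM1. For ITGA4 it did not keep the order: r with the unscaled level was 0.40 and the highest line became Karpas620. For ITGB1 r was 0.69 and KMS12BM became the highest. For CD28 r was 0.78, the highest line became KMS18 and the lowest LP1. With TMM-scaled CPM, ITGA4 was highest in KMS12PE and lowest in RPMI8226, and the lowest line for CD28 and SELPLG became KMS28. Copy number was not measured here, and its part in the levels was not tested.

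**Figure D2:**
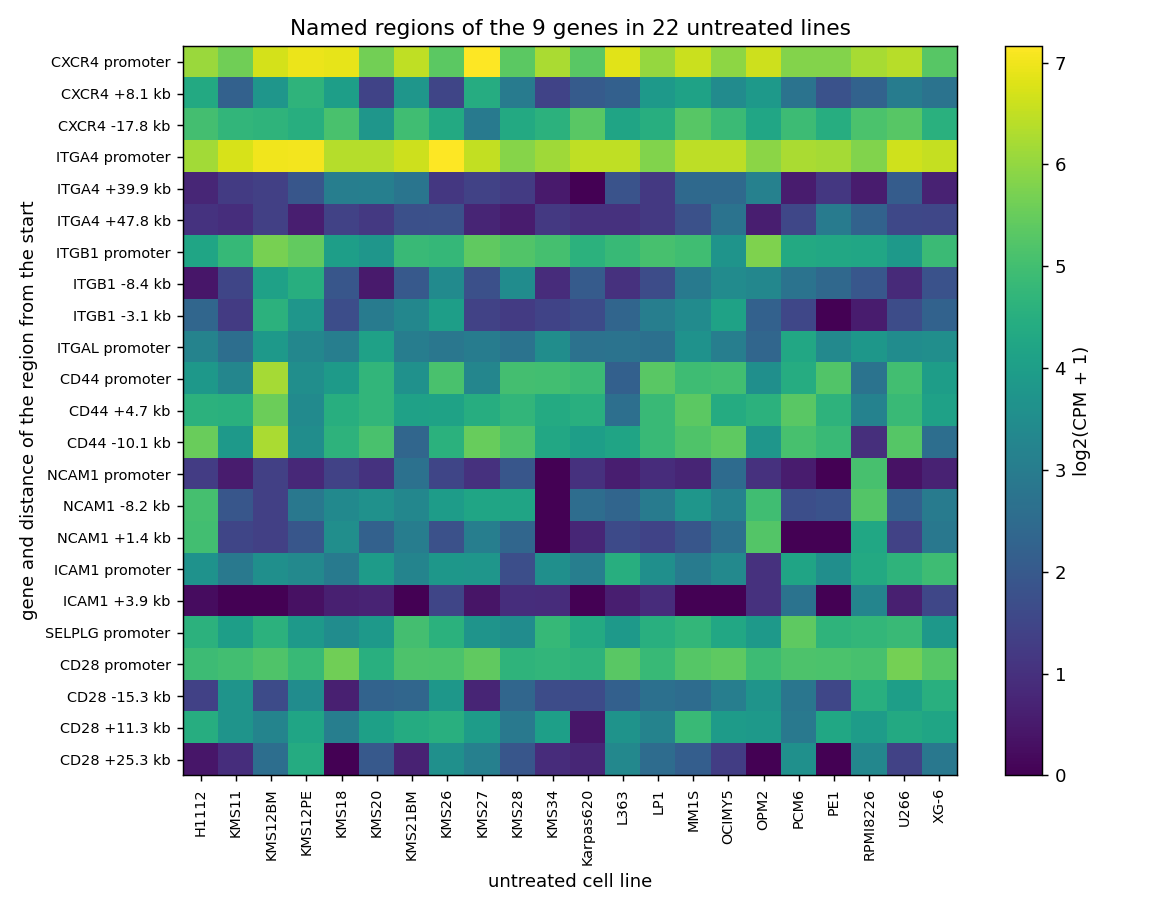
Level in log2(CPM + 1), as colour, of the 22 named regions and the further CD28 region past the lenalidomide test, in rows, over the 22 untreated lines, in columns. Row labels give the distance from the nearest annotated start of the gene, positive when downstream. Rows of CXCR4, ITGA4 and CD28 promoters are bright in every line, while the distal rows of NCAM1 are bright in RPMI8226, OPM2 and H1112.

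KMS12BM and KMS12PE, known as sister lines, were both high at ITGB1 and ITGA4 and differed at CD44. At the CD44 promoter KMS12BM had 73.1 CPM from 278 counts and KMS12PE 10.7 CPM from 42, a ratio of 6.84. At the farther intronic region the ratio was 7.28 and at the nearer 4.79, all in the same direction. At the CXCR4 and ITGA4 promoters the ratios were 1.19 and 1.02 and the 95% Wilson intervals of the counts overlapped. Of the 22 named regions 9 had intervals apart, 5 higher in KMS12BM and 4 higher in KMS12PE. Among the latter was the upstream CD28 region with 10.2 against 2.104 CPM. The share of all regions with intervals apart was not computed, so the 9 cannot be read as a trait of these genes. The intervals cover counting error only, and with 1 library a line these are differences between libraries. The 2 libraries had an r of 0.73 over the same 106658 regions, below that within each lenalidomide pair. Their counts also differed over the series, with a mean chi-square of 22.6 over 37570 regions, where the lenalidomide pairs had 2.14 to 3.81.

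**Figure D3:**
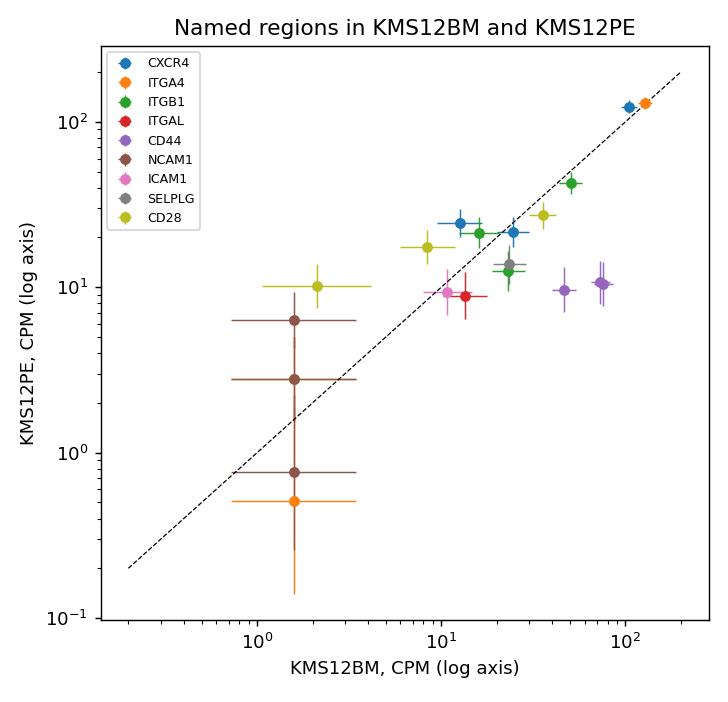
Levels of the named regions in KMS12BM (horizontal) and KMS12PE (vertical) in CPM on log axes, coloured by gene, with 95% Wilson intervals and the line of equality dashed. One ICAM1 region with 0 counts in KMS12BM is not drawn. The 3 CD44 points lie far below the line, by 4.79 to 7.28 times, and the CXCR4 and ITGA4 promoters lie near it.

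For the 4 members with the largest SD at the leading promoter, promoter regions of genes on other chromosomes were ranked by their r over the 22 lines among at least 16081 candidates with a mean of 5 CPM or more. NCAM1 was most like RP11-510M2.1, GSN and SARDH, with r of 0.76, 0.75 and 0.73. CD44 was most like RNU6-1010P, HOMER2 and UQCC1, with 0.77, 0.71 and 0.70. ICAM1 was most like MAP3K6, SARM1 and SLC16A6, with 0.78, 0.73 and 0.72, and ITGB1 most like EXT2, VOPP1 and NSUN2, with 0.79, 0.79 and 0.73. These are the highest of very many values over 22 points that share libraries and depth.

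Differences between lines could be tested only where a line had 2 libraries. With edgeR's quasi-likelihood F-test on the 12 paired libraries, 25 of the 26 member regions with enough counts differed between the 6 lines at a Benjamini-Hochberg adjusted p below 0.05, beside 88.1% of all 37732 regions tested. The exception was a SELPLG promoter region, chr12:109025821-109026180, with an adjusted p of 0.077 in edgeR. The fitted range from the lowest to the highest line had a median of 2.74 in log2 over the 26 regions and 2.22 over all. It was 5.75 at the intronic CD28 region low in Karpas620, 5.50 at NCAM1 chr11:113132395-113133225, 4.95 at the farther CD44 intron, 1.62 at the CXCR4 promoter and 0.69 at the ITGA4 promoter, the last with an adjusted p of 0.000691 in the same edgeR test. The 2 libraries of a line differ in treatment, whose mean effect the fit removes.

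With lenalidomide 1 region each of ITGB1, CD28 and NCAM1 rose and 1 of CD44 fell. Of the 81 member regions 26 had enough counts for the edgeR test, 13 promoter and 13 distal, and 4 passed an adjusted p of 0.05, beside 5.4% of all 37732 regions. Up were 3, at ITGB1, CD28 and NCAM1, beside 4.17% of all, and down was 1, at CD44, beside 1.22%. At an unadjusted p below 0.05 there were 8 of 26, beside 17.3% of all. The other 22 had estimates between −0.55 and 0.47 in log2, 7 above and 15 below 0. The median change was −0.08 over the 26 and −0.01 over all regions, and the median standard error of the 26 was 0.21.

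The promoter of ITGB1, the beta chain of VLA-4, became more accessible in all 6 pairs. The level went from 23.2 to 31.7 CPM in Karpas620, from 41.8 to 44.8 in KMS27, from 27.5 to 65.5 in L363, from 30.6 to 52.3 in MM1S, from 53.7 to 78.7 in OPM2 and from 17.9 to 23.1 in RPMI8226. L363 moved most and KMS27 least, and the ranges of the untreated and treated libraries overlapped. The log2 change was 0.58 ± 0.12 (SE), with an adjusted p of 0.00285 in edgeR. Of all regions tested, 4.97% were higher in 6 of 6 pairs. The call held under each alternative with the cell line as a block, including leaving out any 1 line, with adjusted p from 0.000163 to 0.0412, and was lost without the block, where no region of any gene was called. This is the region whose upstream stretch with the GC boxes is printed above.

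ITGB1 was also called with counts summed per gene. The sum includes the promoter above, whose mean went from 32.5 to 49.3 CPM, so it is not separate support. The counts of the 12 ITGB1 regions summed to 52.1 ± 21.5 CPM untreated and 72.0 ± 27.2 CPM (SD over 6 lines) with lenalidomide. They were up in 6 of 6 pairs, and the share of all genes with such a run was not computed. The log2 change was 0.47 ± 0.11, with an adjusted p of 0.0123 in edgeR. Without L363 the adjusted p was 0.069. Of the 9 members, 1 rose and 1 fell in this test, beside 1.77% and 0.361% of 27111 genes. ITGA4, the partner chain, gave −0.01 ± 0.09 over its summed counts and 0.00 ± 0.09 at its promoter, where the 6 lines had 55.2 to 90.4 CPM untreated and 57.0 to 93.7 CPM treated.

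The farther intronic region of CD44, chr11:35186866-35188063, became less accessible. It went from 15.3 to 13.7 CPM in Karpas620, from 44.5 to 23.6 in KMS27, from 17.3 to 8.30 in L363, from 35.7 to 20.7 in MM1S and from 12.5 to 4.07 in OPM2, and stayed at 0.94 CPM in RPMI8226, where the region was closed in both libraries. The lines that had it open all went down, and Karpas620 did so least. The log2 change was −0.79 ± 0.19, with an adjusted p of 0.00939 in edgeR. Without KMS27 the estimate was −0.77 and the adjusted p 0.067.

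The other CD44 regions did not pass. The nearer intronic region gave −0.35 and was lower in all 6 pairs, as were 4.46% of all tested regions, and the promoter gave −0.16, with Karpas620 and KMS27 higher and the other 4 lower. Summed over 12 regions, with the farther intronic region among them, CD44 went from 75.3 ± 41.1 to 58.4 ± 34.7 CPM. It was down in 6 of 6 pairs, and the share of all genes with such a run was not computed. The log2 change was −0.39 ± 0.10, with an adjusted p of 0.0411 in edgeR. That call was lost when any line but Karpas620 was left out, with adjusted p of 0.0632 to 0.157, and DESeq2 gave 0.115.

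An intronic region of CD28, chr2:204596715-204597471, rose in 5 of 6 pairs. Its level went from 7.76 to 15.1 CPM in KMS27, from 9.18 to 13.8 in L363, from 3.43 to 15.2 in MM1S, from 0 to 1.36 in OPM2 and from 8.97 to 13.2 in RPMI8226, and from 0.694 to 0.391 in Karpas620. The 4 lines with signal reached 13.2 to 15.2 CPM, while OPM2 and Karpas620 stayed at 3 counts or fewer. The log2 change was 1.01 ± 0.28 with an adjusted p of 0.0222 in edgeR. The call rested on single lines and on the tool: without MM1S the estimate was 0.71 and the adjusted p 0.216, without KMS27 0.0806, and with DESeq2 0.145.

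The CD28 promoter did not pass the test. It was lower in all 6 pairs, from 23.6 to 14.5 CPM in Karpas620, from 41.5 to 41.0 in KMS27, from 39.3 to 33.7 in L363, from 37.8 to 22.9 in MM1S, from 29.2 to 27.6 in OPM2 and from 32.6 to 27.1 in RPMI8226, with a log2 change of −0.31 ± 0.13 and an adjusted p of 0.194 in edgeR. Of all tested regions 4.46% were lower in 6 of 6 pairs. Summed over 10 regions CD28 gave −0.06 ± 0.10.

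The intronic region of NCAM1, chr11:113132395-113133225, rose with lenalidomide in 5 of 6 pairs. It went from 37.0 to 53.4 CPM in OPM2, from 18.4 to 35.3 in RPMI8226 and from 7.42 to 20.5 in KMS27. In MM1S it went from 2.75 to 2.90, in Karpas620 from 0.694 to 1.17 and in L363 from 2.04 to 0.922, all at a few counts. The log2 change was 0.79 ± 0.22, with an adjusted p of 0.0291 in edgeR and 0.206 in DESeq2. Leaving out KMS27, OPM2 or RPMI8226 took the region below the count filter, so the call could not be made without any of these 3. Summed over 22 regions NCAM1 was higher in 6 of 6 pairs, by 0.34 ± 0.10 in log2, with an adjusted p of 0.0638 in edgeR that missed the threshold. The share of all genes with such a run was not computed. The RPMI8226 lenalidomide library was 2.01 times as deep as its untreated one, where the other pairs had ratios of 0.887 to 1.15. The part of depth in the result was not tested.

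**Figure D4:**
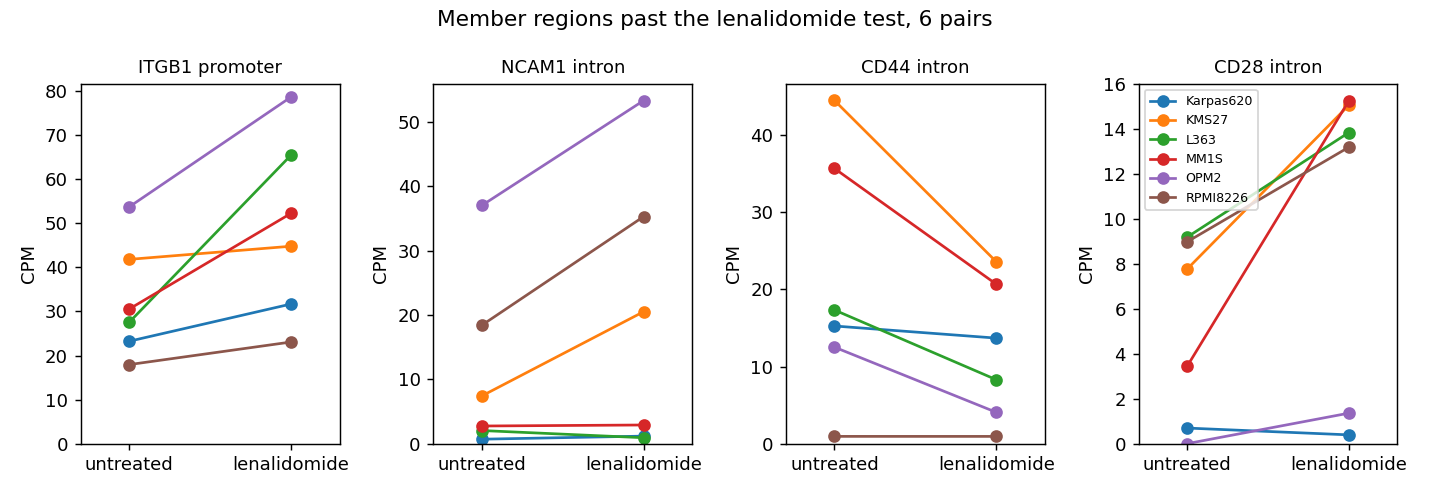
Level in CPM of the 4 member regions past the lenalidomide test, untreated at the left and lenalidomide at the right of each panel, with 1 line per cell line. All 6 lines climb at the ITGB1 promoter, 5 of 6 at the CD28 intron, and at the CD44 intron the 5 lines with signal descend.

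CXCR4 and the genes of rolling and LFA-1 adhesion gave no call. The CXCR4 promoter had 39.2 to 141 CPM in the 6 untreated and 46.6 to 139 CPM in the 6 treated libraries, and the log2 change was −0.07, with an adjusted p of 0.749 in edgeR. The change within a pair at this promoter had a mean size of 0.15 and an SD of 0.20 in log2(CPM + 1). The SD between the 6 untreated lines was 0.63, a measure of single libraries and not of differences. At the region 8.1 kb downstream all 6 pairs were lower, from 20.6 to 13.3 CPM in KMS27, from 13.6 to 6.78 in OPM2 and from 3.12 to 0.391 in Karpas620 at the largest, with −0.55 and an adjusted p of 0.229. Lower in 6 of 6 pairs were 4.46% of all tested regions. The upstream region gave 0.08, with Karpas620 going from 39.2 to 21.5 CPM and L363 going from 17.3 to 31.4.

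The SELPLG regions gave −0.24 at the leading promoter and 0.40 at chr12:109028159-109028609, where all 6 pairs were higher and the adjusted p was 0.259 in edgeR. Higher in 6 of 6 pairs were 4.97% of all tested regions. ICAM1 gave 0.01 at its leading promoter and 0.22 ± 0.17 over its 5 regions. ITGAL gave −0.25 with lines that went apart: L363 went from 5.61 to 0 CPM and Karpas620 from 5.55 to 1.17, while MM1S went from 11.7 to 19.2. The ITGAL change within a pair had a mean size of 1.01 and an SD of 1.26 in log2(CPM + 1). The SD between the 6 untreated lines was 0.56, again of single libraries. Without L363, whose values were 11 and 0 counts, the mean size was 0.662.

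**Figure D5:**
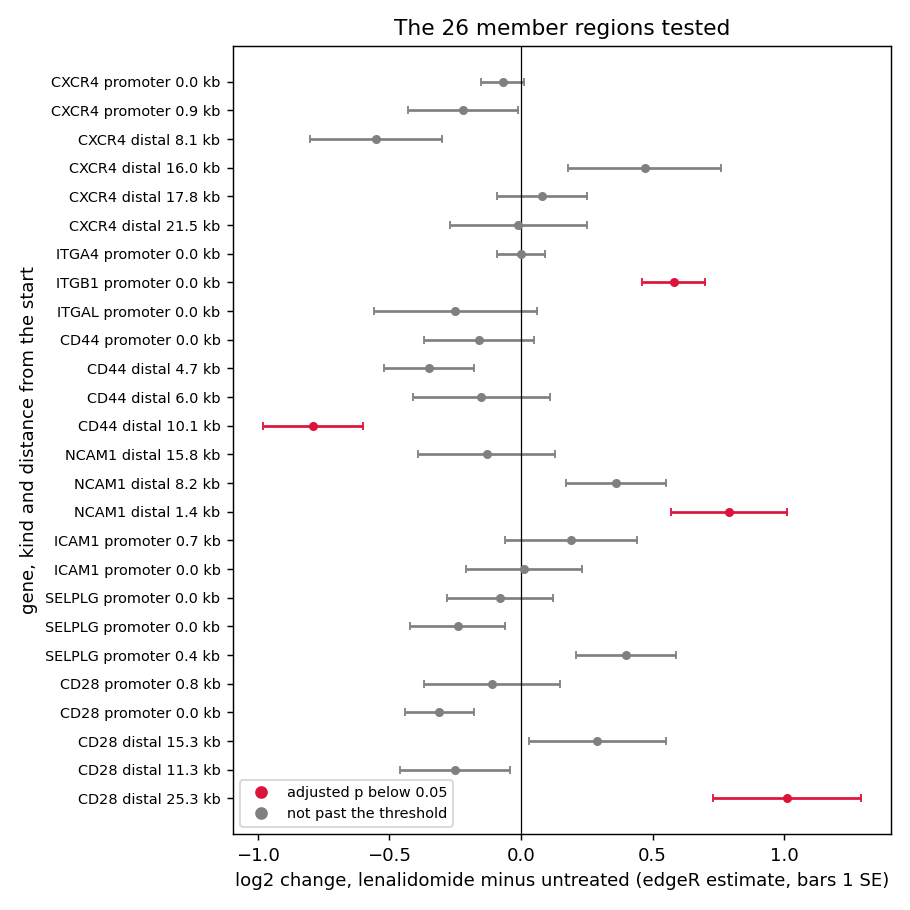
Log2 change with lenalidomide for the 26 member regions tested, as the edgeR estimate with bars of 1 SE, red where the adjusted p was below 0.05. Labels give the distance in kb from the nearest start without its side. The ITGB1 promoter at 0.58 is the one promoter in red, and the CD44 intron at −0.79 the one red region below 0.

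The surrounding pathway was read from 7 lists with 78 genes, of which 68 had enough counts. With counts summed per gene 3 rose and none fell, beside 1.77% and 0.361% of all genes in the edgeR test. These were the integrin chains ITGB3 (0.94 ± 0.18, adjusted p 0.00385 in edgeR) and ITGB7 (0.39 ± 0.10, 0.0261), 2 of 16 other integrins, and CD2, a T and NK cell adhesion molecule (1.16 ± 0.25, 0.011), 1 of 12 tested immunoglobulin-type adhesion molecules. ITGB7 pairs with the same alpha chain as ITGB1. The other lists had no gene called: 6 tested genes of selectins and the enzymes of their ligands, 11 other homing receptors with CXCL12, 5 CD28 relatives and ligands, 10 integrin adaptors and 8 proteoglycans and tetraspanins. The median change over the 68 genes was 0.06, beside −0.01 over all genes.

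By region the same lists had 151 tested, of which 12 rose (7.95%, beside 4.17% of all) and 1 fell (0.662%, beside 1.22%). Distal regions of chemokine receptors were among the 12: CCR6 at a pair of regions with 0.89 ± 0.23 and 0.65 ± 0.18, CCR7 with 0.86 ± 0.22 and CCR1 with 0.71 ± 0.21. Their ligands are chemokines other than CXCL12. The stronger CCR6 region went from a mean of 15.2 to 23.7 CPM. Promoters that rose were those of ALCAM, a homophilic adhesion molecule (0.76 ± 0.16, from 22.9 to 39.3 CPM), ITGB7 (0.54 ± 0.16, from 24.0 to 33.7) and CD86, a ligand of CD28 (1.09 ± 0.26, from 4.98 to 10.9).

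Other calls were distal: ITGB3 (1.14 ± 0.21), CD2 (1.16 ± 0.25), the focal adhesion kinase relative PTK2B (0.97 ± 0.20) and the tetraspanin CD82 (0.86 ± 0.26). The region that fell belonged to CD47, the ligand of SIRPα that restrains phagocytosis, at −0.58 ± 0.15, from 40.8 to 29.4 CPM. All of these had adjusted p below 0.05 in the same edgeR fit, and the nearest start does not show that a region acts on that gene.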

How the data were processed

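ATAC-seq gave 28 libraries, 22 of untreated lines and 6 of lenalidomide-treated ones. Per the submitters' processing notes the authors used Bowtie2 2.2.6, SAMtools 1.7, MACS2 2.1.0.20151222 and GRCh37. Peaks called per library were merged into 154985 regions, and the authors deposited raw counts per region, RPM values that equal the CPM computed here from those counts, and a table of whole numbers (a score per region and library) that the files do not define, taken here as how many peaks of that library the region holds. Whether duplicates were removed, read ends shifted for the transposase, or reads or fragments counted is not given in the sources used here. A peak list was not used.

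From the counts, CPM and log2(CPM + 1) with a pseudocount of 1 were computed. Tests ran over all regions, or over counts summed per gene symbol, in edgeR 4.0.16 (R 4.3.3) with TMM, filterByExpr by treatment, quasi-likelihood tests and Benjamini-Hochberg adjustment at 0.05. The cell line was a block because both libraries of a pair carry one cell line label; each lenalidomide library was also most like its own untreated line (r of 0.88 to 0.93). Lines have 1 library per condition, so p-values rest on 6 pairs, and intervals of single libraries are 95% Wilson intervals for counting error only. The fits were tested on simulated data. Alternatives were DESeq2 1.42.0, no TMM, other count filters (none, or at least 10 counts in each library), no block, each line left out, a pseudocount of 0.1, TMM-scaled CPM, scaling by signal within 5 Mb, promoters within 1 kb, and 2 or 5 CPM in place of a peak. Leaving out PE1 or H1112, the pair that moved most at a leading promoter, or RPMI8226 at NCAM1 was chosen after seeing the data. Named regions are, per gene, the promoter region and the 2 distal regions with the highest mean CPM, and each region past the lenalidomide test. The members and lists were chosen with earlier results of these data known. All 154985 regions lie inside the GRCh37 chromosomes from which sequences were read, and 54 of the 81 member starts are transcript starts in the GENCODE annotation used for places. An item of the gene lists is not reported here.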

Additional observations from a re-analysis of the deposited data

Results flagged for a closer look

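Levels and changes of 12 regions, the 9 leading promoters and the 3 other regions past the lenalidomide test, were searched for a line far from the other 5, in 36 sets of 6 lines (untreated, lenalidomide and the change), all in log2(CPM + 1). Chance gives such a value in about 1 in 20 sets. At 2 sets a line stood apart by a gap of 0.90 of the whole range, above Dixon's limit for 6 values. Both were RPMI8226 at the internal NCAM1 start, chr11:113130042-113130669. Untreated, it had 5.09, from 33.1 CPM, where the other 5 lines had 0.59 to 1.03. With lenalidomide it had 5.26, from 37.4 CPM, where the others had 0.45 to 0.94. The region was taken for its mean CPM over the 22 untreated lines, which RPMI8226 raises from 1.34 to 2.78 CPM, so the untreated value was part of the choice. The values come from 2 libraries of one line, so they are not independent of each other.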

How the results depend on the processing

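Of the 4 member regions called with lenalidomide, 2 were called by DESeq2 and 1 with at least 10 counts in each library, which left 9 member regions tested. Without the cell line as a block edgeR called 0 of 26 (0 at an unadjusted p below 0.05) and 0 of all regions, where 440 of 37732 were below 0.05 unadjusted, and with it 2036. Without a filter 5 were called, the fifth at ITGB1 (chr10:33299094-33299545, 1.4 in log2, adjusted p 0.0162 in edgeR). Leaving out each line gave 1 to 4. For summed genes the 2 calls became 1 with DESeq2 and 1 with at least 10 counts, 0 of 9 without the block in edgeR (0 at an unadjusted p below 0.05), and 0 to 3 when each line was left out, where the count of 0 came without L363. Over all regions DESeq2 called 839, the filter of 10 counts 587, no filter 4092, and leaving out each line 1067 to 2503. For differences between lines the 25 of 26 became 22 with DESeq2, beside 29711 of all 37732 regions tested. Without the treatment term they were 23, beside 31399, and without TMM 26, beside 33219. Without a filter they were 55 of 81, beside 97617 of all 154981 regions tested. With at least 10 counts they were 9 of 9, beside 12174 of 13790. Leaving out each line gave from 20 of 22 tested, without MM1S, to 28 of 29, without L363. No estimate of a called region or gene turned its direction. Regions open in every line were 3 by peaks, 12 at 2 CPM and 8 at 5 CPM. The median SD of the leading promoters, 0.58 in log2, lay between 0.58 and 0.63 under the other scalings, without PE1 and with the other promoter definition. Low counts limited the rest: 55 of 81 member regions fell under the count filter and were tested with lenalidomide only without it.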

Other observations

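There were 3 member regions with a peak in a lenalidomide library and in no untreated line. They were 3.7% of the 81, where 8.06% of all regions had no peak in an untreated line. They lay in introns of NCAM1 (chr11:113032333-113033097, called in RPMI8226, 13.4 CPM there and 9.44 CPM untreated) and of ICAM1 (chr19:10382098-10382524, called in KMS27 at 11.6 CPM, and chr19:10385714-10386051, called in RPMI8226 at 10.4 CPM, where the untreated library had 8.50 CPM). RPMI8226 had counts at both of its regions without a peak call in the shallower library.

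In all, 22 regions overlapped the body or promoter of a member gene but were assigned to the start of another gene. The strongest beside the SELPLG region of the report was in an ITGB1 intron, chr10:33269314-33270262, nearest to RP11-462L8.1. It had 19.8 ± 17.4 CPM over the 22 untreated lines, a peak in 18, and 68.7 CPM in KMS12PE as its highest value. In NCAM1, the intronic region chr11:112839760-112840544 had 29.7 CPM in H1112 and chr11:112885498-112886000 had 25.6 CPM in OPM2, against medians of 3.21 and 1.77 CPM. Other lines led elsewhere in the gene, such as KMS21BM with 22.02 CPM at chr11:113145383-113146075.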
